A study of Mus musculus with 6 samples.

Results

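Genes of lipoprotein assembly and cholesterol efflux were followed in the frontal cortex of GFAP-IL6 mice. They were the rows of the deposited count table whose symbol was Apoe, Apod, Apoc1, Abca1, Abcg1, Lpl, Lcat, Soat1, Ch25h or Npc2. Each symbol was found in 1 row, giving 10 of the 33000 genes of the table. Of these 10 genes, 9 passed the filter on low counts and were tested. Apoc1 did not pass, and its counts are given without a test from that fit.

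TruSeq mRNA libraries, which cover transcripts along their full length, were made from the frontal cortex of 3 wild-type (WT) C57BL/6 mice and 3 mice homozygous for the GFAP-IL6 transgene. All mice were 3 months old, and the series holds the single comparison of GFAP-IL6 with WT. The transgene places the inflammatory cytokine IL6 under the promoter of Gfap, an astrocyte gene, so it models long exposure of the brain to astrocyte-derived IL6 and not a disease. The study generated these libraries as the reference for a cheaper protocol that sequences transcript ends.

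The libraries held between 11591066 and 16877001 counts in WT and between 7559524 and 11072008 in GFAP-IL6, so every GFAP-IL6 library was shallower than every WT library. Il6 had 0, 2 and 0 counts in WT replicates 1, 2 and 3 and 12, 10 and 24 in the GFAP-IL6 replicates. Gfap was at 94.5 ± 24.8 CPM in WT and 678 ± 179 CPM in GFAP-IL6 (SD, n = 3 each), so both genes followed the labels. Levels are given here as TMM-scaled CPM, counts scaled to a common library total corrected for composition, unless TPM is named. TPM is also divided by gene length and is used to compare 1 gene with another. Changes are log2 fold changes of GFAP-IL6 over WT with their standard error (SE). They come from the quasi-likelihood test of edgeR with Benjamini-Hochberg adjustment over all 15341 genes tested. A gene was called at an adjusted p under 0.05. Within WT, replicate 2, the deepest library, stood apart from each other library (chi-square per degree of freedom of 9.50 to 16.3 over genes, against 1.98 to 8.13 for pairs without it). Its striatum markers summed to 473 CPM, against 245 and 246 CPM in the other WT libraries and 265 to 320 CPM in GFAP-IL6. WT replicate 3 held 619 CPM of choroid plexus markers, against 4.36 to 60.2 CPM in the other libraries. The part of these differences in the results was not tested, and values without single libraries are given beside the results they change.

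As background, neurons of the adult brain depend largely on astrocytes for cholesterol, which cannot cross the blood-brain barrier and therefore travels within the tissue on small lipoproteins built around apolipoprotein E. The transporters ABCA1 and ABCG1 load cholesterol and phospholipid onto these particles, enzymes in the extracellular space remodel them, and receiving cells take them up, free the cholesterol in late endosomes and store any excess as esters. Oxysterols, the oxidised derivatives of cholesterol, activate the liver X receptors (LXR), which in turn raise transcription of Apoe, Abca1 and Abcg1 in many cell types.

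Of the 9 genes tested, 2 were called higher in GFAP-IL6, Ch25h and Abca1, against 2.65% of all genes tested. None was called lower, against 0.209% of all genes tested, and Lpl, with the only fitted change below 0, was the 1 gene lower at an unadjusted p under 0.05. DESeq2 called 3 of the genes higher, Apoe besides these 2, and limma-voom called 2, and neither called any lower. Over all genes, DESeq2 called 416 higher and 98 lower of 22621 fitted, and limma-voom 400 higher and 24 lower of 15341. Of the other 7 genes, 4 had an unadjusted p under 0.05 by edgeR without being called, namely Apoe, Apod, Npc2 and Lpl. Of all 15341 genes tested, 2700 did. Ch25h was the only one past an absolute log2 fold change of 1, a criterion met together with the adjusted p by 1.38% of all genes tested. The median log2 fold change over the 9 genes was 0.32, and over all genes tested it was -0.00. Ch25h passed the filter only through the GFAP-IL6 libraries. It reached the level needed, 0.882 CPM in 3 libraries, in 3 GFAP-IL6 libraries and 0 WT libraries, so it could be tested only because it was high there. Among the 8 genes that reached this level in WT, 1 was called higher and the median was 0.23.

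**Figure D1:**
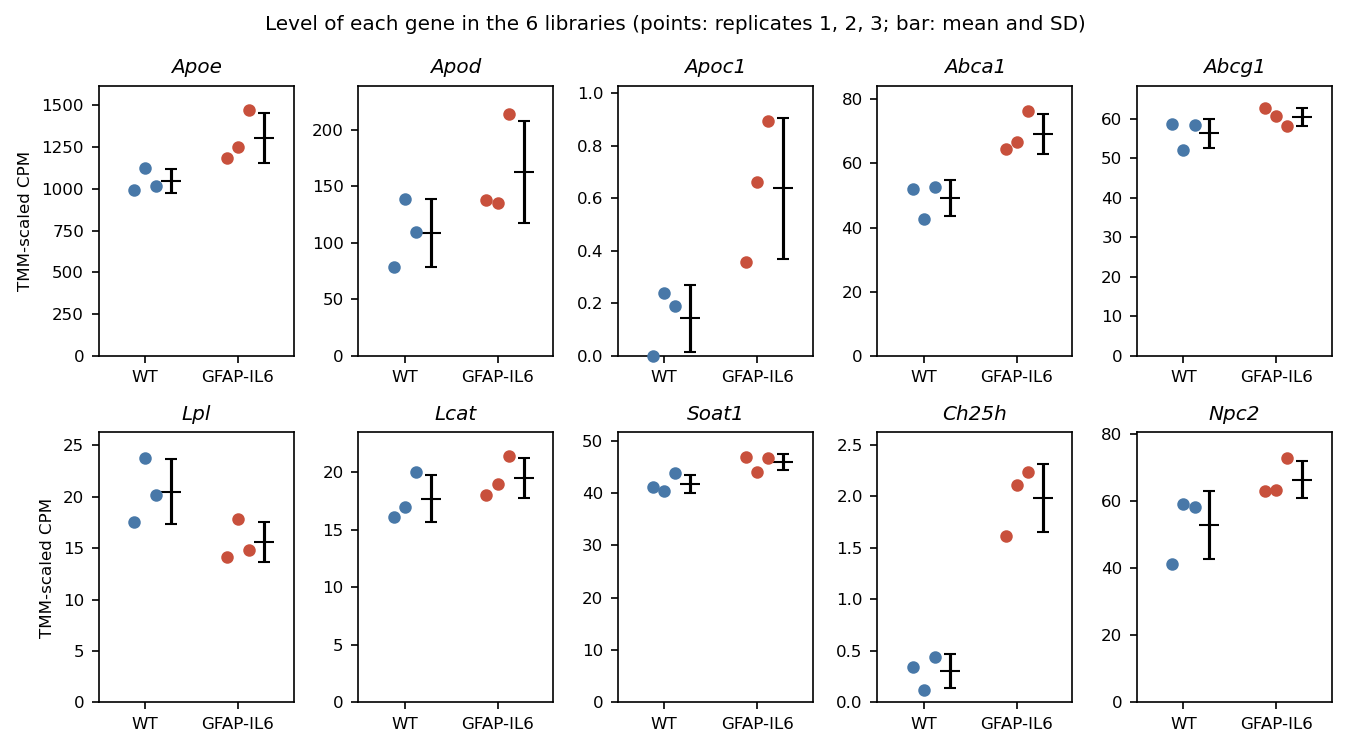
TMM-scaled CPM of the 10 genes, 1 panel per gene with its own axis from 0, in the 3 WT libraries (blue points) and the 3 GFAP-IL6 libraries (red points), with bars for the mean and SD. The groups are furthest apart for Ch25h, at 0.119 to 0.439 CPM in WT and 1.61 to 2.23 CPM in GFAP-IL6, while for Lpl the GFAP-IL6 libraries lie mostly below WT.

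Promoter sequence is shown first for the 2 genes called, since both were higher in the same libraries. The 250 bases before the RefSeq transcription start are given on the GRCm38.p6 build, 5′ to 3′ on the strand of the gene. In Abca1 the capitals mark, in order, an E-box, a match to a direct repeat of 2 AGGTCA half-sites separated by 4 bases, the arrangement to which LXR binds with its partner RXR, and a TATA box. In Ch25h they mark a TATA box and a cAMP response element.
Abca1 promoter, chr4:53159896-53160145, minus strand: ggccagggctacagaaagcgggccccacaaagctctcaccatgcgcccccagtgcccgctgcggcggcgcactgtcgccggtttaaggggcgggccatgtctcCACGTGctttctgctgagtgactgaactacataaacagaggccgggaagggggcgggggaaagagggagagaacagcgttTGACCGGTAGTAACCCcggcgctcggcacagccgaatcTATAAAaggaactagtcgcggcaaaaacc
Ch25h promoter, chr19:34475149-34475398, minus strand: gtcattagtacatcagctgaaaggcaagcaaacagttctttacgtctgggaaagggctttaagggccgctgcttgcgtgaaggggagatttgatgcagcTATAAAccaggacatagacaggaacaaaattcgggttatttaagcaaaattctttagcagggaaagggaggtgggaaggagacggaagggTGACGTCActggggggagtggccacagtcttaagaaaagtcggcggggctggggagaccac

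The motifs were searched on both strands of these 250 bases, and a match describes letters only. The TATA box (TATAAA) lay 29 to 24 bases before the start in Abca1 and 151 to 146 bases before it in Ch25h, and 12.37% of 32851 RefSeq promoters held one. The E-box (CACGTG) of Abca1 lay 147 to 142 bases before the start and was held by 6.021% of promoters. The repeat of Abca1, at 67 to 52 bases before the start, differed from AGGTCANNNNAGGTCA in 3 of its 12 fixed letters, and 18.51% of promoters held a match as close. Lcat, which was not called, held an equally close match 22 to 7 bases before its start. With at most 2 letters different the share was 2.566%, and neither Abca1 nor Ch25h had such a match. The cAMP response element (TGACGTCA) of Ch25h, 61 to 54 bases before the start, was held by 1.546% of promoters. Neither window held the STAT motif TTCNNNGAA or the interferon-stimulated motif GAAANNGAAA, which were held by 7.02% and 2.977% of promoters. The motifs were chosen with these sequences in view.

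Ch25h encodes cholesterol 25-hydroxylase, which makes the oxysterol 25-hydroxycholesterol and is known as an interferon-stimulated gene of macrophages. It is a gene of a single exon on chromosome 19 (ENSMUSG00000050370.4, 34473778 to 34475164, minus strand, GRCm38). It had 4, 2 and 7 counts in the WT libraries against 18, 16 and 20 in those of GFAP-IL6, and its levels were 0.348, 0.119 and 0.439 CPM in WT and 1.61, 2.11 and 2.23 CPM in GFAP-IL6. Every GFAP-IL6 library was thus above every WT library, both in raw counts, in spite of their lower depth, and after scaling. The level rose from 0.302 ± 0.165 to 1.99 ± 0.328 CPM (SD, n = 3 each), a log2 fold change of 2.69 ± 0.42 (SE), or 6.46-fold with a 95% interval of 3.43 to 12.2. The adjusted p was 0.00296, in a test that the gene entered through the GFAP-IL6 libraries alone. With no filter on low counts, where edgeR called 1154 of all genes against 439 with it, the adjusted p was 2.23e-05. Pooled over libraries, 13 counts in WT stood against 54 in GFAP-IL6, a ratio of rates of 6.63 with an exact Poisson interval of 3.57 to 13.2 that covers counting error only.

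Ch25h remained called in all 15 alternative fits, with log2 fold changes between 2.26 and 3.26 and adjusted p of at most 0.0354. Most of these fits used a filter on low counts that Ch25h met only through its GFAP-IL6 libraries, so they share that selection. The exceptions were edgeR with no filter (adjusted p = 2.23e-05) and DESeq2 (adjusted p = 0.00132). The edgeR fit with no filter called more genes over the whole table, so its smaller adjusted p was not particular to Ch25h. Of the exon bases of Ch25h, 11.5% (159 bases) overlap Gm26902, a non-coding gene transcribed from the opposite strand, and the use of strand in counting is not given in the sources used here. Gm26902, looked at for this overlap, had 16, 20 and 22 counts in WT against 15, 12 and 13 in GFAP-IL6, with a log2 fold change of 0.14 ± 0.29 (SE) and an adjusted p of 0.819. Its fitted change was therefore far smaller than that of Ch25h.

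Abca1 encodes the transporter that passes cholesterol and phospholipid to lipid-poor apolipoproteins, the first step of efflux, and lies on chromosome 4 (ENSMUSG00000015243.4, 53030787 to 53159895, minus strand). It had 596, 716 and 841 counts in WT against 719, 506 and 683 in GFAP-IL6. Its levels were 51.9, 42.7 and 52.8 CPM in WT and 64.5, 66.8 and 76.2 CPM in GFAP-IL6, so the groups did not overlap, and WT replicate 2 was the lowest. The mean rose from 49.1 ± 5.59 to 69.2 ± 6.24 CPM (SD, n = 3 each), a log2 fold change of 0.49 ± 0.10 (SE), or 1.41-fold with a 95% interval of 1.21 to 1.64, at an adjusted p of 0.0189.

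Abca1 was higher in all 15 alternative fits, with log2 fold changes of 0.39 to 0.55, and was called in 13. The call was lost without GFAP-IL6 replicate 2 (adjusted p = 0.0615) and without GFAP-IL6 replicate 3 (adjusted p = 0.154). The gene is long, at 10262 bases in the table, and long genes as a class were low in WT replicate 2. Over 941 genes of at least 8000 bases, the median deviation from the gene mean was -0.15 in that library on the log2 scale and between -0.01 and 0.07 in the others. Without WT replicate 2 the log2 fold change of Abca1 was 0.40 and the gene was still called.

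Abcg1 encodes the transporter that adds cholesterol to particles already formed, and lies on chromosome 17 (ENSMUSG00000024030.6, 31057675 to 31117988, plus strand). Its levels were 58.5, 52.0 and 58.3 CPM in WT and 62.6, 60.6 and 58.2 CPM in GFAP-IL6, and the groups overlapped. The log2 fold change was 0.10 ± 0.08 (SE) with a 95% interval of -0.07 to 0.28 and an adjusted p of 0.493, so a 1.41-fold rise like that of Abca1 lay outside the interval. The intervals of the 2 genes overlapped slightly, since that of Abca1 began at 0.273 and that of Abcg1 ended at 0.284. Within each library, the counts of Abca1 over those of Abcg1 were 0.887, 0.821 and 0.905 in WT against 1.03, 1.10 and 1.31 in GFAP-IL6. This ratio is untouched by library scaling but not by a trend with gene length, since Abcg1 has 3610 bases in the table. After an offset for gene length, the log2 fold changes of Abca1 and Abcg1 were 0.39 and 0.09. The ratio was higher in 3 of 3 GFAP-IL6 libraries than in any WT library. The difference was 0.39 on the log2 scale, with a p of 0.1 in an exact permutation test (two-sided), below which 3 libraries against 3 cannot go, and 0.15 after adjustment over the 3 ratios computed. The 3 ratios, of which the others follow with Apoe and Npc2, were chosen after the values were seen.

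Apoe encodes the main apolipoprotein of the brain, made mostly by astrocytes and also by microglia, and lies on chromosome 7 (ENSMUSG00000002985.13, 19696109 to 19699188, minus strand). It was by far the most abundant of the 10 genes, with 11430, 18893 and 16162 counts in WT against 13233, 9452 and 13175 in GFAP-IL6. Scaled to depth, these were 996, 1127 and 1015 CPM in WT and 1186, 1248 and 1471 CPM in GFAP-IL6. The groups did not overlap, but the gap between the highest WT and the lowest GFAP-IL6 library was small beside the spread within GFAP-IL6.

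The mean level of Apoe was 1046 ± 71.0 CPM in WT and 1302 ± 150 CPM in GFAP-IL6 (SD, n = 3 each). The log2 fold change was 0.32 ± 0.10 (SE), or 1.24-fold, with a 95% interval of 0.11 to 0.52 on the log2 scale and an adjusted p of 0.105, which missed the threshold. The fitted change was above 0 in all 15 alternative fits. Apoe was called in 4 of them, namely with no filter on low counts (adjusted p = 0.0173), by DESeq2 (0.0416), after an offset for gene length (0.0335) and without WT replicate 2 (0.0309), and the adjusted p reached 0.368 in the others. Clu encodes clusterin, the other abundant apolipoprotein of astrocytes. The counts of Apoe over those of Clu were 1.53, 1.48 and 1.32 in WT against 1.67, 1.51 and 1.63 in GFAP-IL6, which overlapped (log2 difference 0.16, exact two-sided permutation p = 0.2, and 0.2 adjusted over the 3 ratios).

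Apoc1 encodes a small apolipoprotein that inhibits lipoprotein lipase, and lies 3448 bases from Apoe on the same strand (ENSMUSG00000040564.11, chromosome 7, 19689481 to 19692660). It had 0, 4 and 3 counts in WT against 4, 5 and 8 in GFAP-IL6. The pooled 7 and 17 counts gave rates of 0.158 and 0.614 CPM, with exact Poisson intervals of 0.0637 to 0.326 and 0.358 to 0.983. Their ratio was 3.87, with an interval of 1.53 to 11.1 that covers counting error only and not the spread between mice. In the 2 fits that tested the gene, its log2 fold change was 1.91 (edgeR with no filter, adjusted p = 0.122) and 2.06 (DESeq2, adjusted p = 0.326), so no difference was shown at this depth. The neighbouring genes Apoc2, with 0, 1 and 0 counts in WT against 2, 2 and 3 in GFAP-IL6, and Apoc4, with 0 counts in every library, were not tested either. Of the exon bases of Apoc2, 79.5% are shared with Gm44805 on the same strand in GENCODE M21. Reads from Apoc2 may have gone uncounted if the earlier release used for counting also held Gm44805, which was not checked.

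Apod encodes apolipoprotein D, a lipocalin that binds small lipids and is made in the brain by oligodendrocytes, fibroblasts and other glia. It lies on chromosome 16 (ENSMUSG00000022548.12, 31296192 to 31314808, minus strand). Its levels were 78.4, 138 and 110 CPM in WT and 138, 135 and 214 CPM in GFAP-IL6, and the groups overlapped, since WT replicate 2 was as high as GFAP-IL6 replicates 1 and 2. The means were 109 ± 30.0 and 162 ± 44.9 CPM (SD, n = 3 each), with a log2 fold change of 0.57 ± 0.20 (SE), a 95% interval of 0.144 to 1.001 and an adjusted p of 0.140.

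Apod had the widest spread between replicates, relative to its mean, of the 8 genes above 1 CPM in WT. The summed level of 9 oligodendrocyte markers was 3385, 6274 and 5646 CPM in WT and 4439, 3414 and 5340 CPM in GFAP-IL6, with its lowest and highest WT values in the same libraries as Apod. The sum of 7 fibroblast markers was 91.1, 112 and 72.4 CPM in WT and 76.4, 72.5 and 125 CPM in GFAP-IL6, and was highest in the library with the most Apod. No marker of either list was at 0 in every library. By edgeR, 0 were called and 0 had an unadjusted p under 0.05, and DESeq2 and limma-voom also called 0. The part of these cells in the levels of Apod was not tested. Apod was called with no filter on low counts (adjusted p = 0.000858) and without WT replicate 2 (0.0146). With no filter, edgeR called 1154 of all genes, against 439 with it. DESeq2 did not call Apod (adjusted p = 0.419), and in the other alternatives the adjusted p of Apod reached 0.486. Its log2 fold change was 0.33 without GFAP-IL6 replicate 3 and 0.78 without WT replicate 2.

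Lpl encodes lipoprotein lipase, which hydrolyses the triglycerides of lipoproteins, and lies on chromosome 8 (ENSMUSG00000015568.13, 68880491 to 68907448, plus strand). It was the only gene of the 10 with a lower mean in GFAP-IL6. Its counts were 201, 399 and 321 in WT against 158, 135 and 133 in GFAP-IL6, and its levels were 17.5, 23.8 and 20.2 CPM and 14.2, 17.8 and 14.8 CPM. The groups overlapped only through WT replicate 1, at 17.5 CPM, and GFAP-IL6 replicate 2, at 17.8 CPM.

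The mean level of Lpl was 20.5 ± 3.16 CPM in WT and 15.6 ± 1.95 CPM in GFAP-IL6 (SD, n = 3 each). The log2 fold change was -0.41 ± 0.14 (SE), or 0.754-fold, with a 95% interval of -0.71 to -0.11 and an adjusted p of 0.134. The sign was the same in all 15 alternatives, but the gene was called in 2, with no filter on low counts (adjusted p = 0.0479) and without WT replicate 1 (0.0418). Only 3.79% of the genes tested had a lower log2 fold change.

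Lcat encodes lecithin-cholesterol acyltransferase, which esterifies cholesterol on lipoprotein particles and needs an apolipoprotein as its cofactor. It lies on chromosome 8 (ENSMUSG00000035237.7, 105939551 to 105943382, minus strand), and its levels were 16.1, 17.0 and 20.03 CPM in WT and 18.0, 19.0 and 21.4 CPM in GFAP-IL6. The groups overlapped, and the log2 fold change of 0.13 ± 0.12 (SE) had a 95% interval of -0.13 to 0.39 and an adjusted p of 0.558.

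Soat1 encodes the acyltransferase of the endoplasmic reticulum that stores surplus cholesterol as esters, the main form of this enzyme in brain. It lies on chromosome 1 (ENSMUSG00000026600.10, 156424525 to 156474331, minus strand). Its levels were 41.1, 40.3 and 43.8 CPM in WT and 46.8, 44.1 and 46.7 CPM in GFAP-IL6. The groups did not overlap, but the highest WT and the lowest GFAP-IL6 library were close. The log2 fold change was 0.14 ± 0.08 (SE), with a 95% interval of -0.04 to 0.31 and an adjusted p of 0.359.

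Npc2 encodes the soluble protein of late endosomes that hands cholesterol to the membrane protein NPC1, and lies on chromosome 12 (ENSMUSG00000021242.8, 84754562 to 84773152, minus strand). Its levels were 41.1, 59.2 and 58.3 CPM in WT and 63.0, 63.4 and 72.9 CPM in GFAP-IL6, and WT replicate 1 lay well below the rest. The groups did not overlap, with means of 52.9 ± 10.2 and 66.4 ± 5.60 CPM (SD, n = 3 each). The log2 fold change of 0.32 ± 0.13 (SE), with a 95% interval of 0.05 to 0.60, had an unadjusted edgeR p of 0.0248 and an adjusted p of 0.184, and the gene was called in no alternative. Without WT replicate 1 its log2 fold change was 0.18.

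The counts of Npc2 over those of its partner Npc1 were 0.540, 0.695 and 0.740 in WT against 0.746, 0.759 and 0.802 in GFAP-IL6. This ratio was higher in all 3 GFAP-IL6 libraries, by 0.24 on the log2 scale, with a p of 0.1 in the same exact permutation test, again the lowest possible, and 0.15 adjusted over the 3 ratios. Without WT replicate 1 the difference was 0.10. Npc1 itself had a log2 fold change of 0.11 ± 0.08 (SE) and an adjusted p of 0.481.

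**Figure D2:**
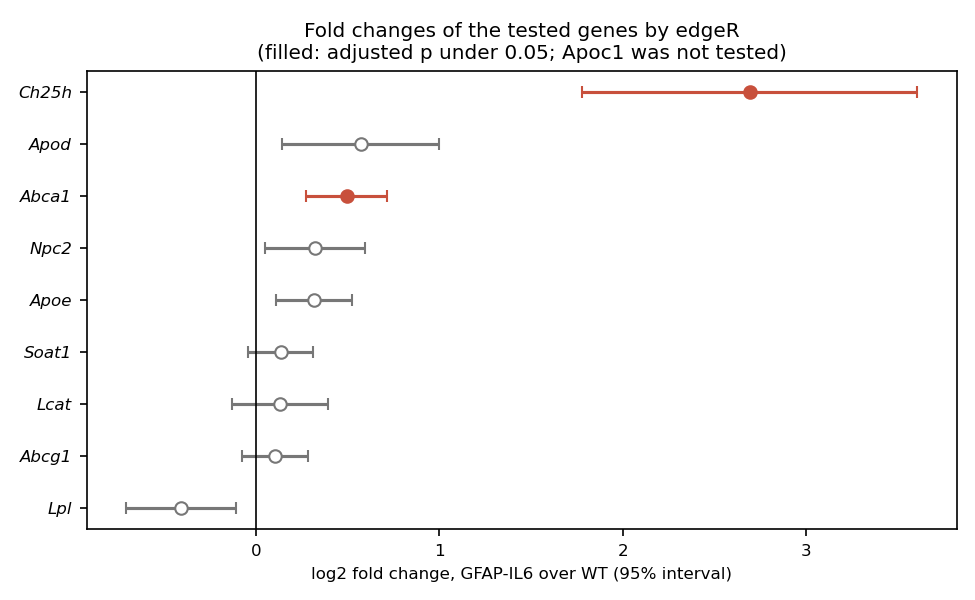
Log2 fold change of GFAP-IL6 over WT (horizontal axis) with 95% intervals from edgeR for the 9 genes tested, filled where the adjusted p was under 0.05. Ch25h at 2.69 and Abca1 at 0.49 are filled, the interval of Lpl lies wholly below 0, and those of Soat1, Lcat and Abcg1 include 0.

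Counted by their separation alone, 5 of the 9 genes had every GFAP-IL6 library above every WT library (Apoe, Abca1, Soat1, Ch25h and Npc2), where 13.8% of all genes tested did. Ch25h entered this count only through its high GFAP-IL6 libraries, so its separation was favoured by the filter. Apoe, Abca1, Soat1 and Npc2 were among the 8 genes that reached the level needed in WT. None had every GFAP-IL6 library below every WT library, where 12.7% of all genes tested did. In bulk tissue, a gene that is made in more or fewer cells cannot be told apart from one with more or less RNA per cell.

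The summed levels of microglia, endothelial and pericyte markers were higher in GFAP-IL6, while those of astrocyte and border macrophage markers overlapped between groups. The summed level of 12 microglia markers was 463 to 572 CPM in WT and 955 to 1103 CPM in GFAP-IL6, with 10 of the 12 called higher and none at 0. That of 9 endothelial markers was 189 to 211 and 293 to 328 CPM, with 5 called higher. For 6 pericyte markers the sums were 185 to 213 and 243 to 274 CPM, with 1 called higher. Of all genes tested, 2.65% were called higher. Of 10 astrocyte markers, summing to 5411 to 6767 CPM in WT and 6362 to 7672 CPM in GFAP-IL6, edgeR called 1, Gfap, and DESeq2 called 2. By edgeR, 1 astrocyte marker was lower at an unadjusted p under 0.05. The 9 neuron markers summed to 11006.7 to 12195.5 CPM in WT and 10654 to 11795.6 CPM in GFAP-IL6. None was called by edgeR, and 3 were lower at an unadjusted p under 0.05. Of all 15341 genes tested, 2700 had such a p, in either direction, without being called. Of the 8 border macrophage and monocyte markers, summing to 8.04 to 13.7 and 10.4 to 16.5 CPM, 4 passed the filter and were tested by edgeR, and 0 of these 4 were called or had an unadjusted p under 0.05. DESeq2 and limma-voom also called 0. The part of these cells in the changes of Ch25h, Abca1 and the other genes was not tested.

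Between genes, levels are compared in TPM. In WT the order was Apoe (1596 TPM), Apod (145), Npc2 (44.9), Abcg1 (43.3), Lcat (36.6), Soat1 (13.8), Lpl (13.8), Abca1 (13.3), Apoc1 (0.724) and Ch25h (0.627), each as the mean of 3 libraries in TPM. Apoe was the 32nd most abundant of the 33000 genes. The libraries of neighbours in this order overlapped between Npc2 and Abcg1, Abcg1 and Lcat, Soat1 and Lpl, Lpl and Abca1, and Apoc1 and Ch25h, so these pairs were not separated by their spread.

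In GFAP-IL6 the levels were 2089 TPM for Apoe, 228 for Apod, 59.4 for Npc2, 48.8 for Abcg1, 42.3 for Lcat, 19.6 for Abca1, 16.0 for Soat1, 11.1 for Lpl, 4.29 for Ch25h and 3.45 for Apoc1, all in TPM. Abca1 had moved above Soat1 and Lpl, and Apoe ranked 22nd of all genes. Only Ch25h and Apoc1 then overlapped as neighbours. These places depend on the gene length used: with the exon bases of a later annotation (GENCODE M21) in place of the length in the table, Lcat came before Npc2 and Abcg1 in both groups, and Abca1 came before Soat1 and Lpl in WT as well.

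To set the 10 genes beside the rest of the pathway, 117 other genes of lipoprotein and sterol handling were listed by role from general knowledge. Of these, 95 were tested, 7 were called higher and 1 lower, and their median log2 fold change was 0.09. The 2.65% and 0.209% of all genes called higher and lower are the background for these counts. Both the 10 genes and these lists were chosen with earlier results of these data known. The counts therefore describe the lists and cannot test for an excess of calls.

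The lipoprotein receptors and their regulators held 3 of the genes called higher, among 14 tested. Mylip encodes an LXR-responsive ubiquitin ligase that degrades the receptor of low-density lipoprotein. Its levels were 14.0, 14.3 and 13.4 CPM in WT and 22.9, 23.0 and 25.9 CPM in GFAP-IL6, which were well separated, with a log2 fold change of 0.78 ± 0.11 (SE) and an adjusted p of 0.000956. It was also the only gene called among 13 other LXR-responsive genes, whose median log2 fold change was 0.14. Trem2, a microglial receptor that binds lipids and apolipoproteins and was also 1 of the microglia markers, rose by 1.13 ± 0.13 (SE) on the log2 scale, with an adjusted p of 0.000289. Lsr, a lipolysis-stimulated lipoprotein receptor and a protein of tight junctions, rose by 1.27 ± 0.17 (SE), with an adjusted p of 0.0008. Of its exon bases, 43.6% overlap the antisense gene Gm4673, which had a log2 fold change of 0.69 ± 0.19 (SE) and an adjusted p of 0.0712.

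Of the 12 other ABC lipid transporters, all tested, 2 were called higher and none lower. Abca9, a transporter of the A subfamily expressed in macrophages, was at 12.4, 11.5 and 13.4 CPM in WT and 17.8, 22.1 and 29.1 CPM in GFAP-IL6. The log2 fold change came to 0.89 ± 0.16 (SE) at an adjusted p of 0.00895, and the call was lost without GFAP-IL6 replicate 3 (adjusted p = 0.0587). Abca7, a close relative of Abca1, was at 37.0, 32.0 and 39.0 CPM in WT and 48.2, 46.9 and 49.3 CPM in GFAP-IL6. Its log2 fold change of 0.42 ± 0.09 (SE) had an adjusted p of 0.0287, which rose to between 0.0865 and 0.165 when any 1 GFAP-IL6 library was left out.

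Among the 23 genes of sterol transport and storage, 2 were called higher, and the median of the list was -0.02. Soat2 encodes the second acyltransferase that esterifies cholesterol, known from liver and intestine. It had 3, 1 and 4 counts in the WT libraries against 25, 11 and 15 in those of GFAP-IL6 and, like Ch25h, passed the filter only through GFAP-IL6, with a log2 fold change of 3.25 ± 0.46 (SE) and an adjusted p of 0.00142. It was not tested under the stricter filter of a mean of at least 1 CPM, which left 7 of the 8 calls in the listed genes. The ratio of the pooled rates was 10.2, with an exact Poisson interval of 4.79 to 24.8 for counting error only. Its relative Soat1 was far more abundant and differed by 0.14. Tspo, a protein of the outer mitochondrial membrane that binds cholesterol and is used as a marker of activated microglia, rose by 1.29 ± 0.21 (SE) on the log2 scale with an adjusted p of 0.00434.

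The only gene called lower was Insig1, which encodes a sterol sensor of the endoplasmic reticulum that retains the SREBP proteins there. Its levels were 65.3, 84.6 and 80.5 CPM in WT and 61.1, 53.0 and 54.7 CPM in GFAP-IL6, so WT replicate 1 was close to GFAP-IL6 replicate 1. It fell by 0.45 ± 0.11 (SE) on the log2 scale with an adjusted p of 0.0378, and was not called in 5 of the 15 alternatives. Among the other 15 nuclear receptors and sensors tested none was called by edgeR, and DESeq2 and limma-voom called none of them higher. The LXR genes themselves, named for their tie to Abca1 after the values were seen, had log2 fold changes of 0.42 ± 0.23 (Nr1h3) and 0.16 ± 0.09 (Nr1h2), each with its SE, and adjusted p of 0.328 and 0.299. Rxra, 1 of the RXR partners of LXR, had 0.32 ± 0.10 (SE) and an adjusted p of 0.110. The other RXR genes, added after the values were seen, had 0.00 ± 0.08 (Rxrb) and -0.43 ± 0.39 (Rxrg), each with its SE. Their adjusted p were 0.985 and 0.554.

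By edgeR no gene was called among the remaining lists. As background for the counts below, 2700 of all 15341 genes tested had an unadjusted p under 0.05 without being called. In the list of other apolipoproteins and partners, 4 of 16 genes were tested and 1 had an unadjusted p under 0.05. DESeq2, which also fitted rarer genes, called Apob higher (adjusted p = 0.0408), the structural apolipoprotein of low-density lipoprotein, on 1, 0 and 0 counts in WT against 5, 3 and 11 in GFAP-IL6. Pltp, a phospholipid transfer protein, had a log2 fold change of 0.24 ± 0.10 (SE) and an adjusted p of 0.219, and Clu had 0.16 ± 0.10 and 0.390. Of 9 lipases and partners tested, 2 had an unadjusted p under 0.05 and DESeq2 and limma-voom called 0. The intracellular lipases Lipe and Pnpla2 had log2 fold changes of 0.44 each, with adjusted p of 0.123 and 0.0964, beside the -0.41 of Lpl. Of 9 genes of oxysterol metabolism tested, whose median was -0.14, 4 had an unadjusted p under 0.05, 2 in each direction, and DESeq2 and limma-voom again called 0. Among them, Sult2b1, a sulfotransferase of sterols, had -0.46 ± 0.17 (SE) and an adjusted p of 0.159. Gpr183, the receptor for an oxysterol made from the product of Ch25h, had 19, 28 and 21 counts in WT against 12, 4 and 5 in GFAP-IL6, with a log2 fold change of -1.03 ± 0.36 (SE) and an adjusted p of 0.143. Exons of Pltp overlap those of Ctsa on the opposite strand over 19.3% of their bases, and those of Lipe overlap an antisense gene over 15.6%. Lpcat3, an LXR-responsive enzyme of phospholipid remodelling, had 0.33 ± 0.11 (SE) and an adjusted p of 0.142.

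**Figure D3:**
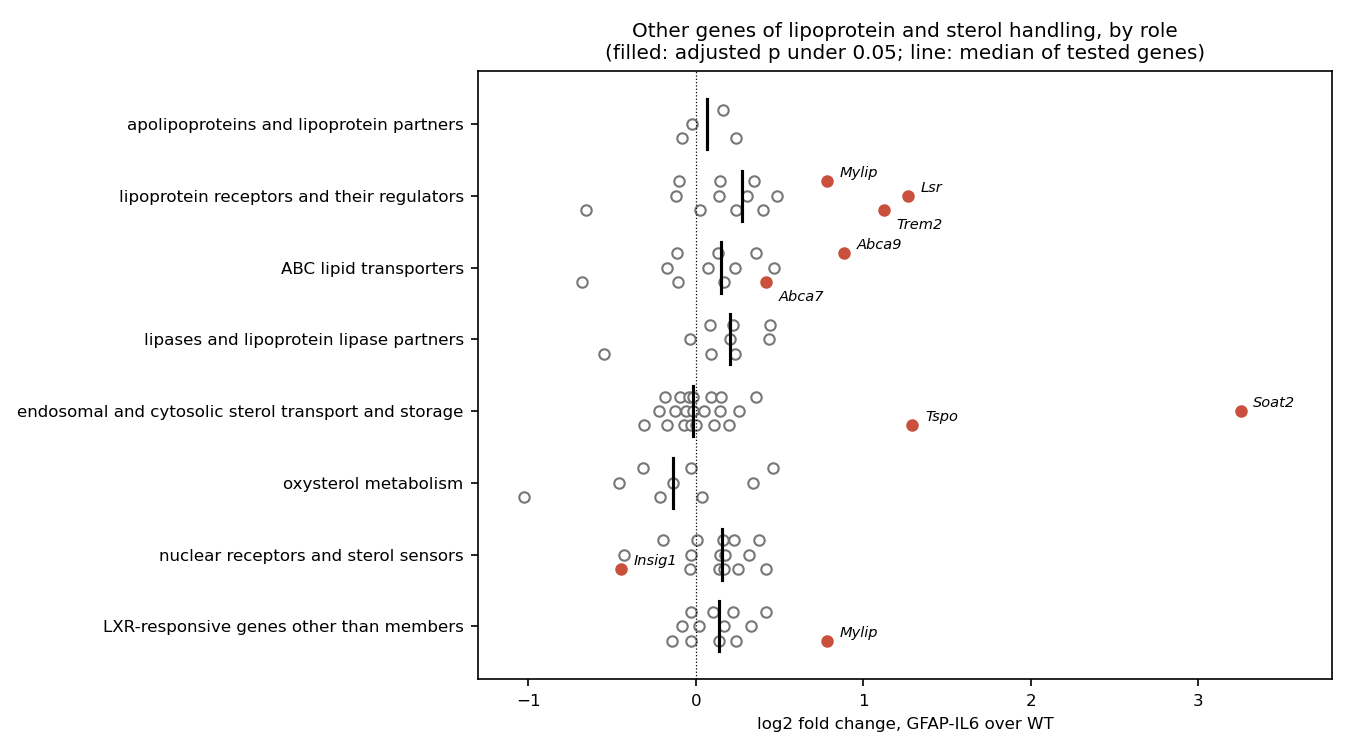
Log2 fold change of GFAP-IL6 over WT (horizontal axis) for the tested genes of each list (rows), filled and named where the adjusted p was under 0.05, with a line at the median of each list. Soat2 stands furthest to the right at 3.25, Insig1 at -0.45 is the only filled point below 0, and the medians lie between -0.14 and 0.27.

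For the 2 genes called, the genes with the most similar pattern over the 6 libraries were sought among all genes tested, by the root mean square difference of log2(CPM + 0.5) after centring each gene on its WT mean. Abca1 was closest to Man2b2 (0.0398) and Dnhd1 (0.0434), in units of log2. Their log2 fold changes were 0.47 ± 0.12 and 0.48 ± 0.12 (SE), with adjusted p of 0.0631 and 0.0457. Dnhd1 was not called in 8 of the 15 alternatives, by DESeq2 (0.0732), after thinning, after the length offset (log2 fold change 0.33) and without any 1 library other than WT replicate 1, with adjusted p of up to 0.242. Both genes were lowest in WT replicate 2 and highest in GFAP-IL6 replicate 3, as Abca1 was. Ch25h was closest to Liph, a lipase acting on phosphatidic acid, at 0.131, and to the leukocyte surface gene Cd52, at 0.184. Their log2 fold changes were 2.28 ± 0.33 and 1.94 ± 0.28 (SE), each with an adjusted p of 0.00153, though Liph too passed the filter only through GFAP-IL6, and both were lowest in WT replicate 2 and highest in GFAP-IL6 replicate 3, again as Ch25h was. These likenesses rest on 6 libraries and were searched for among all genes.

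**Figure D4:**
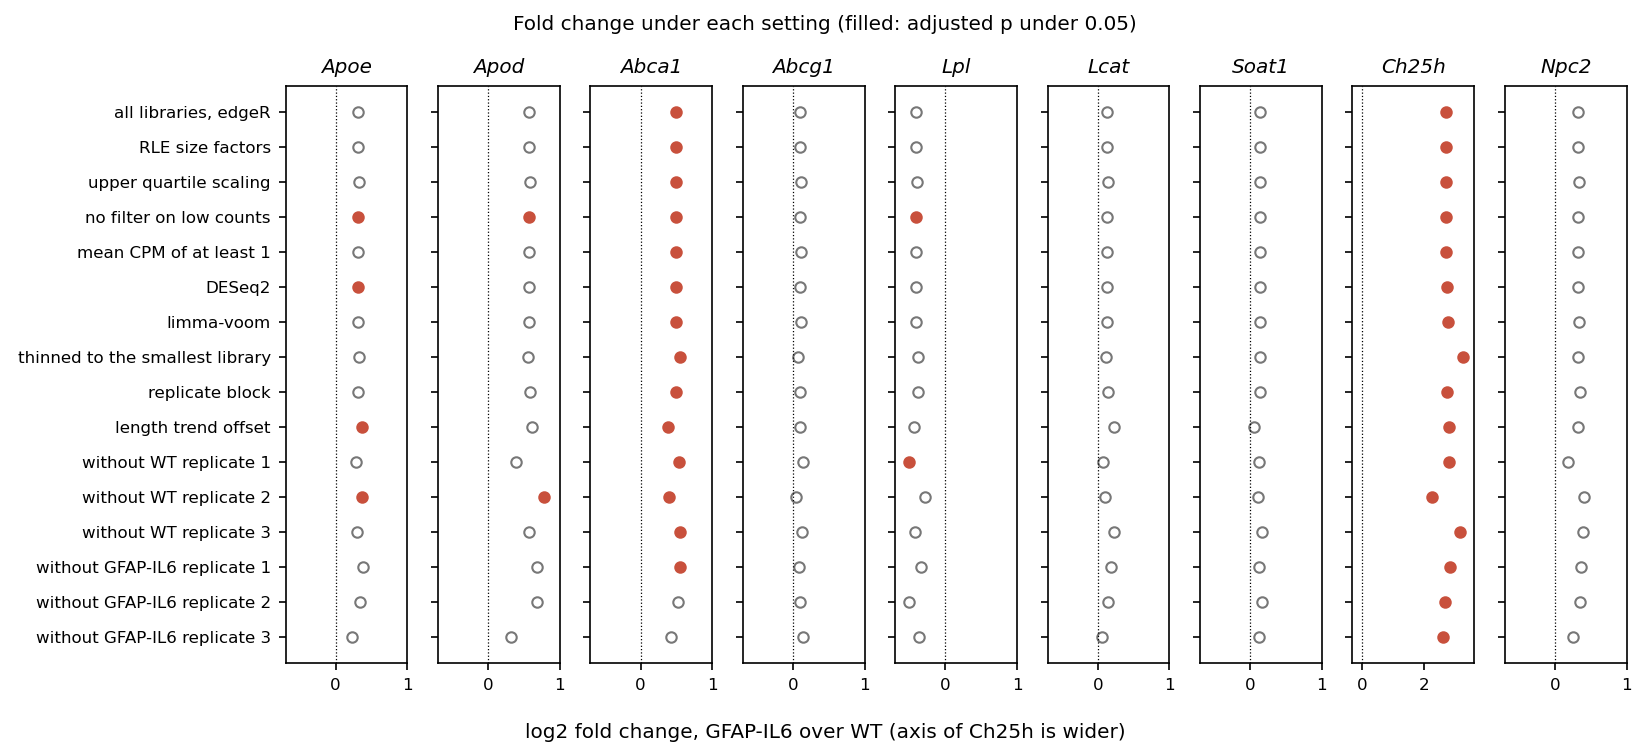
Log2 fold change (horizontal axis, wider for Ch25h) of the 9 tested genes with all libraries by edgeR and in 15 alternative fits (rows), filled where the adjusted p was under 0.05. Ch25h is filled in every row, Abca1 in all but those without GFAP-IL6 replicate 2 or 3, and no gene crosses 0.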

How the data were processed

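The authors aligned TruSeq reads to mm10 with STAR 2.4 and assigned uniquely aligned reads to GENCODE genes with featureCounts, and deposited raw counts with a gene length. Whether strand was used is not given in the sources used here. Groups and replicate numbers came from the sample titles. Counts were tested with edgeR 4.0.16 in R 4.3.3 (quasi-likelihood F-test, TMM scaling, filterByExpr, Benjamini-Hochberg adjustment over 15341 genes), with the group as the only term. Alternatives used DESeq2 1.42.0, limma-voom 3.58.1, other scalings and filters, thinning to 7559524 counts, a replicate block and each library left out. The scripts were tested on simulated data. Exact Poisson intervals treat pooled counts as independent, so they cover counting error only and not the spread between mice. Reads carried no molecular identifiers, so copies made by amplification may leave these intervals too narrow. Positions and exon overlaps are from GENCODE M21 (GRCm38, the assembly of mm10), a later release than that used for counting. It matched 32593 of 33000 identifiers. Promoters are from RefSeq, which held 7 of the 10 genes. The 10 genes and all lists were chosen with earlier results of these data known. Named genes are the 10, those called in the lists, the lowest unadjusted p in lists with fewer than 2 calls, the 2 genes most like each called gene, and those said to be chosen later.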

Additional observations from a re-analysis of the deposited data

How the results depend on the processing

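Of 15 alternative fits, the number of the 10 genes called differed from 2 by more than 1.5 times with no filter on low counts (5) and when 1 library was left out (between 1 and 4). It was 4 without WT replicate 2 and 1 without GFAP-IL6 replicate 2 or 3. The count past an absolute log2 fold change of 1 was 1 in every fit. Over all genes tested, 439 were called with all libraries, 1154 with no filter and between 187 and 1061 with 1 library left out. It was 1061 without WT replicate 1, 282 without GFAP-IL6 replicate 2 and 187 without GFAP-IL6 replicate 3. The 8 calls in the listed pathway genes became between 5 and 12, with 5 without GFAP-IL6 replicate 3 and 12 without WT replicate 1. No named gene that was followed through the fits changed sign in any of them. Rxrb and Rxrg were not followed. The cause of these shifts was not tested. Libraries of the same number correlated by 0.11, 0.02 and 0.04 in their deviations from the group mean, and those of different numbers by -0.09 to 0.05. Whether libraries of the same number shared more than the number was not tested. With a replicate block, 2 of the 10 genes and 750 of all genes were called. The offset for gene length, the M21 lengths and the ratios without single libraries were chosen after seeing the data. Ordered by CPM in place of TPM, 4 of the 10 genes kept their place in WT and 5 in GFAP-IL6, and with M21 lengths 2 and 7. The low counts of Ch25h, Soat2 and Apoc1 limit the precision of their fold changes.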
